A study of Mus musculus with 7 samples.

Results

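Cav1, Cav2, Cavin1 and Gja1, which encode 3 structural proteins of caveolae and the gap junction protein connexin 43, were followed over 7 arrays of mouse fetal liver cells. They are 4 of the 12393 genes that had a probe set of their own, and they were read by 12 of 22690 probe sets: 1 for Cav1, 2 for Cav2, 3 for Cavin1 and 6 for Gja1. The genes were chosen with their Sca1+ and Sca1- levels already known. Their values in that comparison are therefore given as a description with no test. All 4 passed the filter for testing, which asked for signals over 100 in 2 or more of 5 sorted samples and left 8591 genes.

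Caveolae are flask-shaped pits of the plasma membrane, built from caveolins inserted in the inner leaflet and a coat of cavins, with EHD ATPases at the neck. They are abundant in endothelial cells, fibroblasts and smooth muscle, where they buffer membrane tension and gather signalling proteins such as endothelial nitric oxide synthase. Caveolin 1 and cavin 1 are both needed for caveolae to form outside striated muscle, and caveolin 2 forms hetero-oligomers with caveolin 1. Connexin 43 forms hexameric hemichannels that dock between neighbouring cells and pass ions and small molecules, and in the liver it is known from stellate cells, mesothelium, endothelium and macrophages rather than from hepatocytes.

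The arrays held RNA of liver endothelial progenitors with the surface antigen Sca1 (Sca1+, n = 2) or without it (Sca1-, n = 3). A further array held liver endothelial progenitors with no Sca1 fraction in the title, called unsorted (n = 1), and another fetal liver feeder cells (feeder, n = 1). Whether the sorted cells came from the unsorted sample is not stated in the labels. No treatment or genetic change is named in the labels, which give neither strain nor embryonic age, and they leave unsaid whether replicates are separate cultures or animals. All p-values therefore rest on a spread between samples that may be technical. Sca1+ replicate 2 and Sca1- replicates 2 and 3 carry a sample number in their titles and are called the later set. The other 4 arrays, 1 of each group, are called the first set, a split inferred here. The feeder array lies alone in a second deposited table, under another array platform, so each level set beside it crosses tables. Levels are given as signals after scaling every array to a trimmed mean of 500. Differences are log2 values, taken after raising signals under 64 to 64.

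The arrays differed in RNA quality and in cell type markers. The highest of 27 bacterial control probe sets, taken as background, ranged from 50.8 to 170 and was highest on Sca1- replicate 1 and the unsorted array. The 3' to 5' ratio of the actin gene Actb, a measure of transcript truncation, was 6.83 on Sca1+ replicate 1, 13.5 on Sca1- replicate 1 and between 1.01 and 2.37 on the other 5 arrays. The endothelial markers were uneven. Pecam1, which encodes CD31, ran from 14.99 to 206 and the angiopoietin receptor Tek and its relative Tie1 lay under 64 on all 7 arrays, while the VEGF receptor Kdr ran from 141 to 432, the coreceptor Eng from 184 to 749 and Egfl7 from 106 to 205.

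Cav1, Cav2 and Gja1 were under background on Sca1- replicate 1 alone, and Cavin1 on both sorted arrays of the first set. For this reason the 250 bases before each gene's start (RefSeq, GRCm38.p6) are shown. They lie at chr6:17306085-17306334 on the plus strand for Cav1, chr6:17280935-17281184 on the plus strand for Cav2, chr11:100970618-100970867 on the minus strand for Cavin1 and chr10:56377050-56377299 on the plus strand for Gja1. Each is written 5′ to 3′ on the gene's strand, and capitals mark matches on either strand to 5 motifs: the AP-1 element TGANTCA, the GC box GGGCGG, the CCAAT box CCAAT, the TATA element TATAAA and the TEAD element GGAATG.
Cav1: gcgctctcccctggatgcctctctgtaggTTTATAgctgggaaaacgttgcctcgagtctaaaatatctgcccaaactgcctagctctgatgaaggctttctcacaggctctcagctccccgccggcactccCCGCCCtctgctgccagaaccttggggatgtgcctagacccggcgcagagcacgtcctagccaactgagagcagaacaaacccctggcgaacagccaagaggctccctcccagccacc
Cav2: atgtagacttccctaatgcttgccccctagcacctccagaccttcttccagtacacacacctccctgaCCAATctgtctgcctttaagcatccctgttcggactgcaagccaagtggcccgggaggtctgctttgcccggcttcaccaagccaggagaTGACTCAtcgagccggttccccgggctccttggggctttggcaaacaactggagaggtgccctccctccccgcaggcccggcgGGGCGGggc
Cavin1: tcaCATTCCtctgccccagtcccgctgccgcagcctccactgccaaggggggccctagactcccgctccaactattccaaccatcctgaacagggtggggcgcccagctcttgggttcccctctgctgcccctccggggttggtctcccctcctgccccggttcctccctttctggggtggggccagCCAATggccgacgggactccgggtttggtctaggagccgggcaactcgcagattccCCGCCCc
Gja1: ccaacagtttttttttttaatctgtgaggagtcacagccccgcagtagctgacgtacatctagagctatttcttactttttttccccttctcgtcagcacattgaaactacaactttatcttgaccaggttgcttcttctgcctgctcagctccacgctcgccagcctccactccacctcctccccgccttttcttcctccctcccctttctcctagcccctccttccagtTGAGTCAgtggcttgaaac
The Cav2 window held an AP-1 match beginning 92 bases before the start and the Gja1 window one beginning 19 bases before it, and 6.75% of the 32817 promoter windows of this length held at least 1. A GC box stood in the Cav1, Cav2 and Cavin1 windows, against 32.7% of windows, and a CCAAT box in those of Cav2 and Cavin1, against 33.8%. The Cavin1 window held a TEAD match (12.6% of windows) and the Cav1 window a TATA match on the opposite strand, beginning 221 bases before the start (12.4% of windows). No marked matches overlapped. RefSeq lists 2 starts each for Cav1 and Cavin1, and only the window at the start of the gene record was searched. Cav2 and Cav1 are neighbours on chromosome 6, with 0 protein-coding genes between their starts in the RefSeq table.

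Cav1, which encodes the main scaffold protein of caveolae outside striated muscle, was low on 1 array, Sca1- replicate 1. Its signal (1449145_a_at) was 537.5 and 396.8 in Sca1+, 91.1, 386.4 and 410.6 in Sca1-, 568.8 in unsorted progenitors and 401.9 in the feeder layer. The fractions overlapped, since Sca1- replicate 3 lay above Sca1+ replicate 2. Sca1- replicate 1 lay under its highest background control, and Sca1+ replicate 1 was at least 3.16-fold above it, taking that control as the bound. In the later set the log2 difference of Sca1+ replicate 2 was 0.04 from Sca1- replicate 2 and -0.05 from Sca1- replicate 3. In bulk RNA such as this, fewer cells of a type and less RNA per cell cannot be told apart.

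Cav2, which encodes the caveolin partner of Cav1, had the same low array and otherwise high signals. The probe set 1417327_at gave 1068.9 and 1302.9 in Sca1+, 100.7, 685.3 and 942.6 in Sca1-, 1255.6 in unsorted progenitors and 1262.6 in the feeder layer. Both Sca1+ arrays were above all 3 Sca1- arrays. Sca1+ replicate 1 was at least 6.29-fold above Sca1- replicate 1, while Sca1+ replicate 2 was 1.90-fold above Sca1- replicate 2 and 1.38-fold above Sca1- replicate 3. The second Cav2 probe set, 1425955_at, gave at most 133 on any array and exceeded the highest background control on 2 of 7.

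Cavin1, which encodes the coat protein that binds caveolin-rich membrane, was low on both sorted arrays of the first set, whichever fraction they held. Its probe set 1424130_a_at gave 53.6 and 723.3 in Sca1+, 25.8, 492.4 and 232.7 in Sca1-, 591.2 in unsorted progenitors and 1092.4 in the feeder layer. Sca1+ replicate 1, where Cav1, Cav2 and Gja1 were each far above background, lay just under its highest control of 55.2 for Cavin1, and the unsorted array was at least 10.7-fold above it. No fold can be given between the first-set fractions, as both were below background. In the later set Sca1+ replicate 2 was 1.47-fold above Sca1- replicate 2 and 3.11-fold above Sca1- replicate 3. The other Cavin1 probe sets did not show this order: 1421431_at stayed between 35.4 and 72.6 on the sorted arrays and reached 234 on the unsorted array, and 1453891_at reached at most 97.6.

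Gja1, which encodes connexin 43, was higher on both Sca1+ arrays than on all 3 Sca1- arrays. The probe set 1437992_x_at gave 418 and 560.2 in Sca1+, 65.8, 197.9 and 292.5 in Sca1-, 645 in unsorted progenitors and 725 in the feeder layer. Sca1+ replicate 1 was at least 2.46-fold above Sca1- replicate 1, and Sca1+ replicate 2 was 2.83-fold above Sca1- replicate 2 and 1.92-fold above Sca1- replicate 3. As with the caveolins, the lowest value was that of Sca1- replicate 1.

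**Figure D1:**
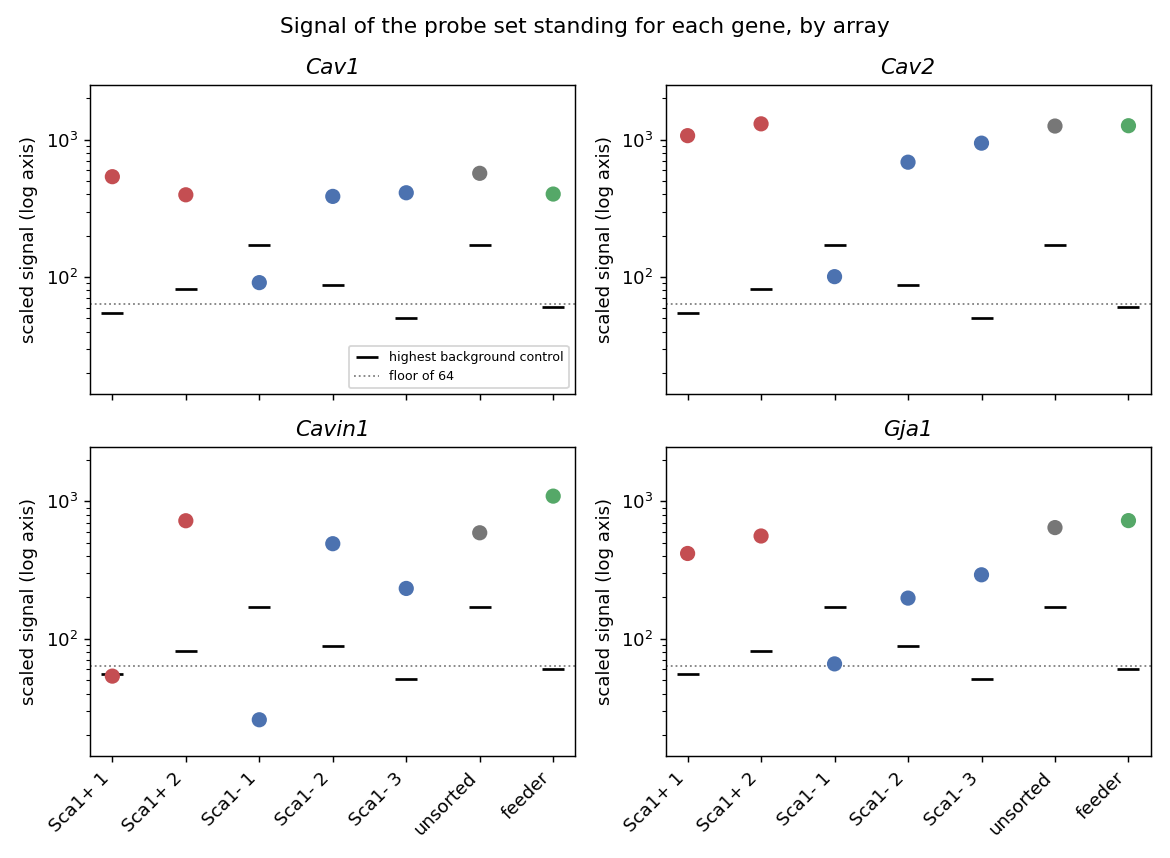
Signal of Cav1, Cav2, Cavin1 and Gja1 on each of the 7 arrays (log axis, scaled signal), 1 point per array, with each array's highest background control. Cav1, Cav2 and Gja1 are lowest on Sca1- replicate 1, at 91.1, 100.7 and 65.8, while Cavin1 is at 53.6 and 25.8 on the first-set Sca1+ and Sca1- arrays.

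In the later set all 6 Gja1 probe sets were higher in Sca1+, while in the first set most were too dim to be ordered. Sca1+ replicate 2 lay above Sca1- replicate 2, and above Sca1- replicate 3, in 6 of 6 probe sets, each time also above the highest background controls of both arrays. In the first set 5 of 6 probe sets had both signals under the highest control of Sca1- replicate 1, and only 1437992_x_at gives an order there. As measured, 4 of 6 had both Sca1+ arrays above all Sca1- arrays, as did 11.3% of the 13251 probe sets with 1 gene that passed the filter. In 3 of those 4 Sca1+ replicate 1 lay under the control of Sca1- replicate 1, which leaves 1 with that order above background. The probe set 1415800_at gave 113 and 383 in Sca1+ against 38.8, 110 and 109 in Sca1-, with 205 in unsorted cells and 332 in the feeder layer. Pearson's r between pairs of the 6 probe sets over the 7 arrays ran from 0.07 to 0.93 with a median of 0.72 over 15 pairs. These probe sets are annotated to the same gene, were read on the same arrays and are not replicates. Whether each reads only the Gja1 transcript was not checked.

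The study compared Sca1+ with Sca1- progenitors, and over all 5 sorted arrays the means of the 4 genes were higher in Sca1+. The log2 difference was 0.92 ± 0.72 (SE, 2 against 3 arrays) for Cav1, 1.55 ± 0.93 for Cav2, 0.15 ± 1.19 for Cavin1 and 1.63 ± 0.67 for Gja1. The median of the 4 was 1.24, against 0.07 over all genes tested, a gap that shows nothing further, as the genes were chosen with these levels known. With 1 common floor of 170 on every array, the highest background control of any array, the differences were 0.62, 1.30, 0.38 and 1.17. No gene passed limma's test at an adjusted p of 0.05 in this comparison (0% higher and 0% lower of 8591), while 95 were higher and 197 lower at an unadjusted p under 0.05. Cav2 and Gja1 had both Sca1+ arrays above all 3 Sca1- arrays, an order shown by 12.1% of the genes tested, with 8.45% in the reverse order, and nothing is read from this count because the genes were chosen on it. Without Sca1- replicate 1 the differences were 0.21 for Cav1, 0.55 for Cav2, -0.65 for Cavin1 and 1.01 for Gja1. Without Sca1+ replicate 2 that of Cavin1 was -1.60, and without Sca1+ replicate 1 it was 1.90.

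Within the sample pairings the first set allows only bounds, because Sca1- replicate 1 was under background for all 4 genes. Sca1+ was at least 3.16-fold higher there for Cav1, 6.29-fold for Cav2 and 2.46-fold for Gja1, and Cavin1 has no value. These 3 of 4 thus reached 2-fold, as did 17.1% of all genes tested with the floor at 64. Against Sca1- replicate 2 the later Sca1+ array differed by a log2 value of 0.04 for Cav1, 0.93 for Cav2, 0.55 for Cavin1 and 1.50 for Gja1, and Gja1 was the 1 member at 2-fold or more, a size reached by 6.68% of genes. Against Sca1- replicate 3 the values were, in the same gene order, -0.05, 0.47, 1.64 and 0.94, and Cavin1 was the 1 member at 2-fold or more, against 5.99% of genes. Cav2 and Gja1 were higher in Sca1+ in all 3 pairings, as were 26.2% of the genes tested, and none of the 4 reached 2-fold in all 3, as 0.314% of genes did. The pairings of the later set share the Sca1+ array. With the set as a block the differences were 1.09 ± 0.58 for Cav1, 1.86 ± 0.60 for Cav2, 0.63 ± 0.46 for Cavin1 and 1.84 ± 0.43 for Gja1, and 0% of genes were called higher and 0.989% lower.

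**Figure D2:**
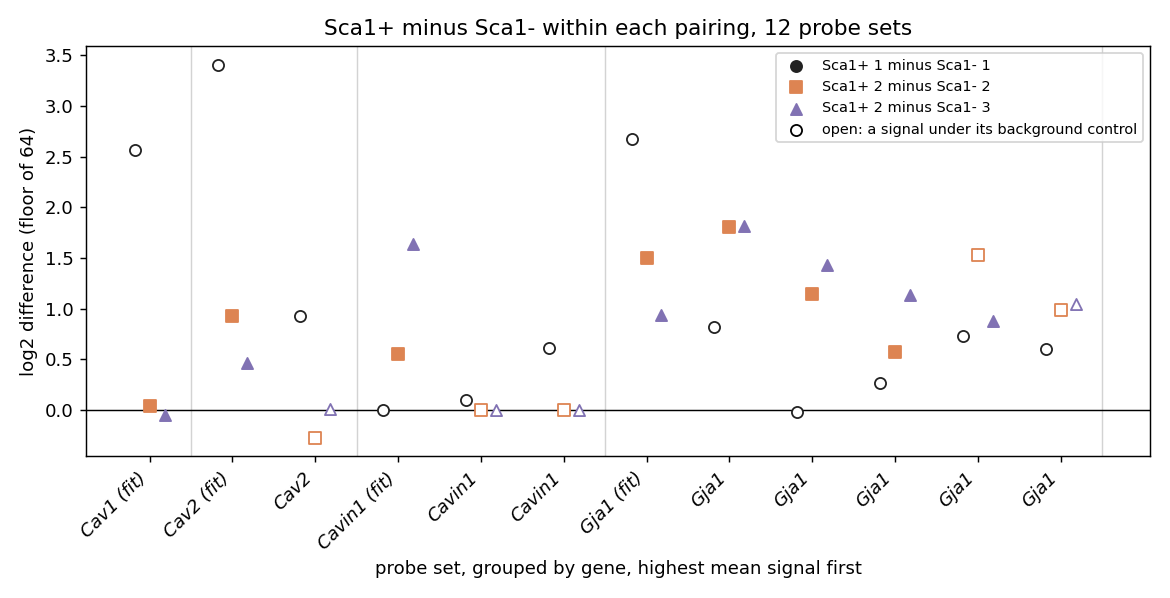
Log2 difference of Sca1+ from Sca1- (floor at a signal of 64) in the 3 sample pairings for the 12 probe sets, grouped by gene, 1 point per probe set and pairing; "fit" marks the probe set that stands for its gene, and open symbols mark pairs with a signal under its array's highest background control. All first-set points are open, so their heights, such as 2.56 for Cav1 and 2.67 for Gja1, are no measured sizes, while the later pairings gave 0.04 and -0.05 for Cav1 and 1.50 and 0.94 for Gja1.

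The later set was compared with the sorted arrays of the first set, with the fractions kept apart. In this comparison, first-set arrays means those sorted arrays. The unsorted and feeder arrays, also of the first set, add nothing to it. On them Cavin1 was at 591.2 and 1092.4, against 232.7 to 723.3 on the later arrays. The rule for the genes names another comparison, but the signals of these arrays were known when they were chosen, so the test is not independent of the choice. The sorted arrays of the first set also had the highest Actb 3' to 5' ratios, 6.83 and 13.5 against 1.87 to 2.37 in the later set. The part of RNA quality in this comparison was not tested. Cavin1 was higher in the later set by 2.87 ± 0.46 (SE, 3 against 2 arrays; limma, adjusted p = 0.0126 over 8591 genes), with 3 of 3 later arrays above both first-set arrays, an order shown by 26.3% of genes. Both first-set arrays were at the floor, so the fitted size depends on where the floor lies. With the highest background controls as bounds, the geometric mean of the later arrays was at least 4.50-fold that of the first-set arrays, fractions pooled. Within Sca1+ the later array was at least 13.1-fold higher. Within Sca1- the bounds over replicate 1 were 2.90-fold for replicate 2 and 1.37-fold for replicate 3. The call was lost with a higher floor (1.87, adjusted p = 0.110), with the floor at the highest background control (1.46, adjusted p = 0.212), with no filter (adjusted p = 0.135), with the 3 Cavin1 probe sets averaged (0.83, adjusted p = 0.0984) and with any of 3 single arrays left out. Leaving out Sca1+ replicate 1, Sca1+ replicate 2 or Sca1- replicate 1 gave adjusted p values of 0.0861, 0.0877 and 0.0919. Cav2 (1.83 ± 0.60, adjusted p = 0.0775), Gja1 (1.25 ± 0.43, adjusted p = 0.0890) and Cav1 (1.03 ± 0.58, adjusted p = 0.246) did not pass. Without Sca1- replicate 1 the difference of Cav1 was -0.44 and that of Cav2 was 0.29. Leaving out either Sca1+ array again left the Sca1- arrays alone, and both fits gave 2.13 for Cav1 and 3.00 for Cav2. Sca1- replicate 1, the only first-set array in them, was under its highest background control for both genes. Cav2 was called without Sca1- replicate 2 (limma, adjusted p = 0.00615). In this comparison 11.8% of genes were called higher and 7.46% lower (1012 and 641 genes), a split that became 892 and 896 with quantile normalization and 541 and 745 with median scaling.

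All 4 genes were above the highest background control in the unsorted progenitors and in the feeder layer, with 1 array each and no test. The feeder array differed from the unsorted array by -0.50 for Cav1, 0.01 for Cav2, 0.89 for Cavin1 and 0.17 for Gja1, against a median of -0.03 over all genes tested. None of the 4 reached a 2-fold difference here, a size at which 4.04% of genes were above and 9.60% below the unsorted array. Median scaling shifted the all-gene median to 0.29, and the 4 values were then -0.14, 0.37, 1.25 and 0.53. With quantile normalization Cav2 was at -0.10. With a mean over each gene's probe sets Cav2, Cavin1 and Gja1 were at -0.46, -0.06 and -0.19. In order of level, Cav1 was highest on the unsorted array, Cav2 on Sca1+ replicate 2, and Cavin1 and Gja1 in the feeder layer. For Cav1 the arrays ranked from the third to the sixth lay between 386.4 and 410.6, and for Cav2 the top 3 between 1255.6 and 1302.9, and neighbours within these stretches differed by less than the SD within a sorted fraction, which was 1.02 log2 units for Cav1 and 1.43 for Cav2.

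Over the 6 arrays of the larger table Pearson's r of log2 signal was 0.97 between Cav1 and Cav2, 0.91 between Cav1 and Gja1 and 0.95 between Cav2 and Gja1. Cavin1 had r of 0.50 with Cav1, 0.60 with Cav2 and 0.57 with Gja1. These are descriptions of 6 arrays that share the low array Sca1- replicate 1. The genes most like Cav1 among the other 8590 were Dipk2a (r = 0.997 over 6 arrays and 0.986 over all 7), Snx5 (0.995 and 0.995), which encodes a sorting nexin, and Slc25a51 (0.995 and 0.967), which encodes the mitochondrial NAD carrier. For Cav2 they were Rab18 (0.997 and 0.986), which encodes a small GTPase, Spred1 (0.995 and 0.982), which encodes an inhibitor of Ras signalling, and Mdfic (0.995 and 0.994). For Gja1 they were Tgif1 (0.995 and 0.984), which encodes a homeobox repressor, Arhgap18 (0.990 and 0.969) and Sec61a2 (0.989 and 0.977). For Cavin1 they were Mical2 (0.995 and 0.991), which encodes an actin-oxidizing enzyme, Ereg (0.989 and 0.986), which encodes the growth factor epiregulin, and Bace1 (0.988 and 0.990), which encodes beta-secretase. Such likeness was common, since 474 genes had r above 0.9 with Cav1, 596 with Cav2, 552 with Cavin1 and 388 with Gja1.

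Among the other genes of the caveola coat and neck, some followed the order of Cavin1 and some that of the caveolins. Of 10 listed, 9 were measured and 6 tested. None passed in Sca1+ against Sca1-, and in the later against the first set 1 of 6 passed as higher and 1 of 6 as lower, with a median difference of 1.05 against 0.10 over all genes. For this and the following lists, the shares over all genes in that comparison were 11.8% higher and 7.46% lower. Ehd2, which encodes the ATPase that stabilises the caveolar neck, ran with Cavin1, at 26.8 and 638 in Sca1+, 15.6, 280 and 200 in Sca1-, 406 in unsorted cells and 712 in the feeder layer. It was higher in the later set by 2.50 ± 0.44 (limma, adjusted p = 0.0157), with both first-set arrays at the floor. Cavin3, a further coat protein, was at 3.8 and 286 in Sca1+ and 12.6, 56.4 and 123 in Sca1-, and its later-set difference of 1.19 ± 0.55 did not pass (limma, adjusted p = 0.173). Ehd4, an endosomal relative also found at caveolae, was low on Sca1- replicate 1 alone, at 486 against 3458 to 4690 on the other sorted arrays, the order of Cav1 and Cav2. Ehd1, which works in endosomal recycling, was lower in the later set (-1.68 ± 0.27, limma, adjusted p = 0.0118), with 9060 on Sca1- replicate 1. Cav3, the muscle caveolin, stayed at 21.99 or below on all arrays.

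**Figure D3:**
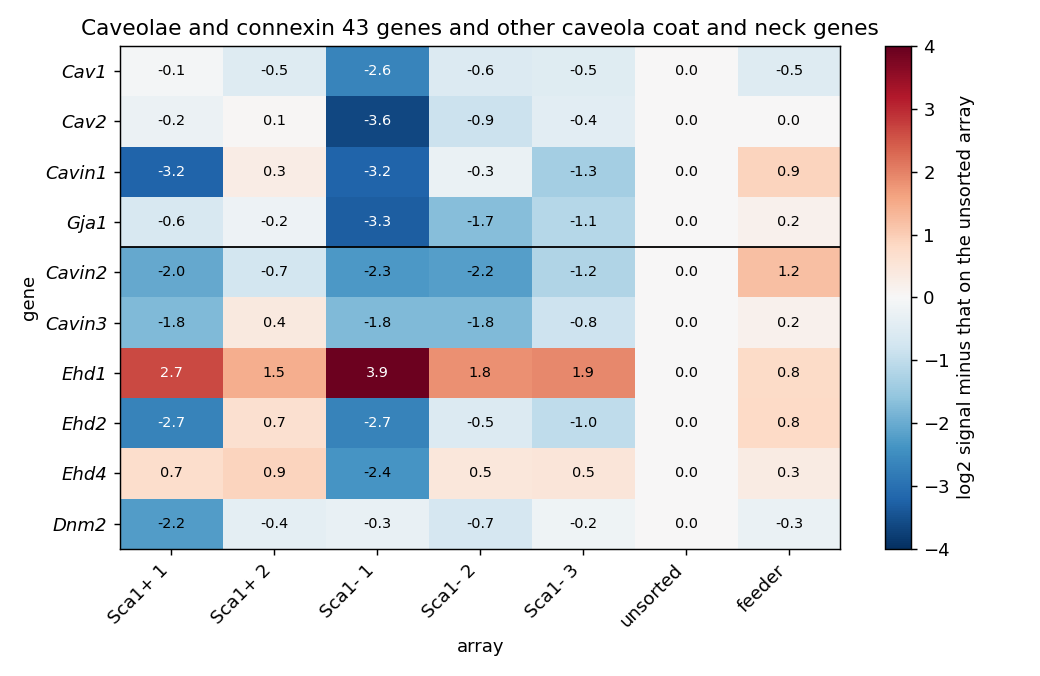
Log2 signal minus that on the unsorted array (floor at 64) for the 4 genes, above the line, and the 6 tested coat and neck genes, below it, on the 7 arrays, 1 cell per gene and array. Cavin1 and Ehd2 are low on both sorted arrays of the first set, where they are at the floor, while Cav1, Cav2, Gja1 and Ehd4 are lowest on Sca1- replicate 1.

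Of 5 genes for proteins known to reside in caveolae 4 were tested, none passed in Sca1+ against Sca1-, and 1 of the 4 was higher in the later set. That was Cd36, the fatty acid and thrombospondin receptor, at 2625 and 4396 in Sca1+ and 495, 3085 and 2980 in Sca1-, with a later-set difference of 1.81 ± 0.42 (limma, adjusted p = 0.0330). Like the caveolins it was lowest on Sca1- replicate 1. Nos3, which encodes endothelial nitric oxide synthase, was at 121 and 187 in Sca1+ against 260, 66.6 and 47.4 in Sca1-. Scarb1, an HDL receptor, and Insr, the insulin receptor, passed in neither comparison. Of the raft scaffold genes Flot1, Flot2 and Stom, 1 of 3, Flot1, was lower in the later set (-1.13 ± 0.24, limma, adjusted p = 0.0264), and it was highest on Sca1- replicate 1, at 4675.

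Other connexins were mostly at the floor on the sorted arrays, where 7 to 12 of the 13 measured had signals under 64. Of 22 other connexin and pannexin genes 13 were measured, and the 2 that passed the filter, Panx1 and Gjc1, passed neither comparison. Gja4 and Gja5, the connexins 37 and 40 of arterial endothelium, stayed at 71.97 or below on the sorted arrays, and Gja4 reached 215 on the unsorted array. Of 12 known connexin 43 partners 11 were measured and 10 tested, none passed in Sca1+ against Sca1-, and 4 of 10 were higher in the later set, against 11.8% of all genes. They were Dbn1, an actin-binding protein that anchors connexin 43 (2.63 ± 0.33, limma, adjusted p = 0.00605), Cdh2, the N-cadherin of adherens junctions (2.55 ± 0.36, adjusted p = 0.00827), Ubqln4 (1.80 ± 0.26, adjusted p = 0.00948) and the ubiquitin ligase Nedd4 (1.98 ± 0.46, adjusted p = 0.0322). Cdh2 was at 3.60 and 10.99 on the sorted arrays of the first set and between 277 and 539 on the later ones, the order of Cavin1 rather than of Gja1. In all, 25 of 52 related genes were tested, 0 passed in Sca1+ against Sca1- (limma, with 1, Flot2, lower at an unadjusted p under 0.05), and 6 of 25 were higher and 2 of 25 lower in the later set, against 11.8% and 7.46% of all genes. Fitted sizes of genes at the floor on the first-set arrays, such as Ehd2 and Cdh2, depend on where the floor lies.

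The summed signals of fibroblast and hepatoblast markers moved with the order of Cavin1, and the part of cell types in the results was not tested. Of 11 fibroblast genes, 3 and 4 exceeded a signal of 100 on the first-set Sca1+ and Sca1- arrays and 10 on each of the other 5 arrays. Their summed signal was 1979 and 3230 on those first-set arrays and between 29074 and 78756 elsewhere, the order of Cavin1. Of 11 genes of stellate cells, pericytes and smooth muscle, 2 and 3 exceeded 100 on the sorted arrays of the first set and 7 to 9 on the others. Their summed signal did not follow that order, with 2889 on Sca1+ replicate 1, 10854 on Sca1- replicate 1 and 8288 to 29552 on the others, and the smooth muscle actin Acta2 was at 10111 on Sca1- replicate 1. Of 7 hepatoblast genes, the summed signal was 442 and 581 on the sorted arrays of the first set and between 1302 and 5223 elsewhere, and 4 of the 5 tested were higher in the later set. The albumin gene Alb did not follow this order, at 97.0 and 317 in Sca1+ and 174, 29.8 and 40.8 in Sca1-. Ttr stayed at 76.6 or below on the sorted arrays. Col1a1, a fibrillar collagen, was at 79.4 on Sca1+ replicate 1, against 32.6 on Sca1- replicate 1 and 8319 to 20565 in the later set. Of 5 mesothelial genes measured, 0 and 2 exceeded 100 in Sca1+, 0, 1 and 1 in Sca1-, and 3 each in unsorted cells and in the feeder layer. Among them Wt1 was at 5.8 and 11.6 on the sorted arrays of the first set and between 148 and 570 on the other 5, while Msln stayed at 66.8 or below on all arrays. Of 15 endothelial genes, 4 and 10 exceeded 100 in Sca1+, 9, 7 and 7 in Sca1-, 12 in unsorted cells and 7 in the feeder layer. A signal of 100 lies under the highest background control of Sca1- replicate 1 and of the unsorted array. Above each array's own control there were 7 and 10 in Sca1+, 3, 8 and 10 in Sca1-, 8 in unsorted cells and 10 in the feeder layer. Their summed signals lay between 1008 and 2924.

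The array on which Cav1, Cav2 and Gja1 were low also had the highest granulocyte signals. The summed signal of 8 granulocyte genes was 544788 on Sca1- replicate 1, against 208863 and 182812 on the other Sca1- arrays, 129514 and 8515 in Sca1+, 58932 in unsorted cells and 4319 in the feeder layer. Macrophage genes gave no single order. Their median log2 signal over 11 genes was 9.54 on Sca1- replicate 1 and between 11.17 and 12.44 on the other 6 arrays, but their summed signal there, 48871, lay within the range of the others, 46173 to 79987, and 7 to 9 of the 11 exceeded 100 on every array. Sca1- replicate 1 also had the highest 3' to 5' ratio, at 13.5. Sca1+ replicate 1, with the second highest at 6.83, had signals of Cav1, Cav2 and Gja1 above background and that of Cavin1 just under it. Whether RNA quality or cell makeup moved any of the 4 genes was not tested.

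**Figure D4:**
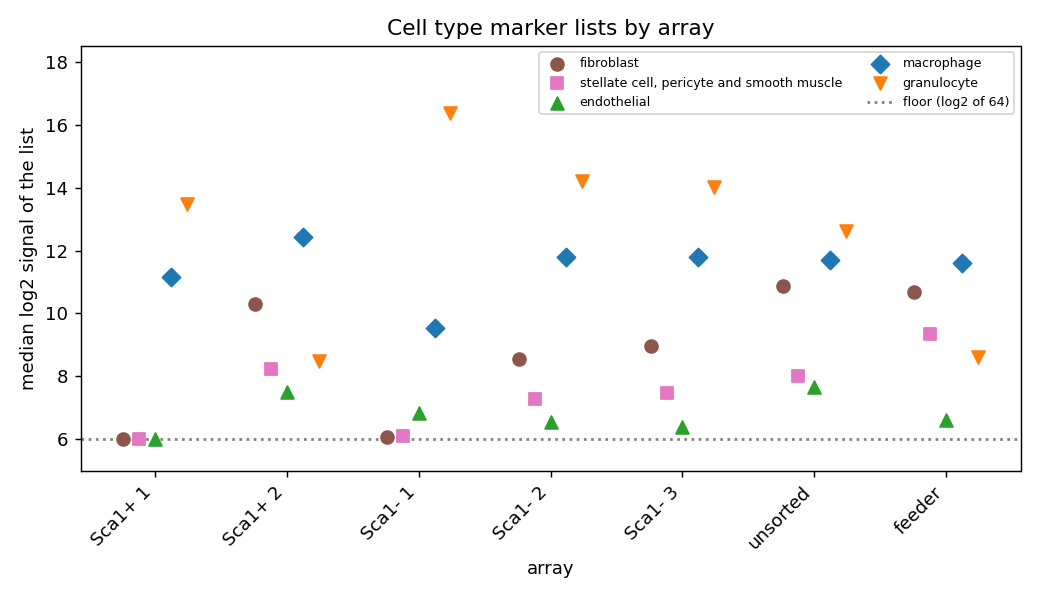
Median log2 signal (floor at 64) of 5 marker lists on the 7 arrays, 1 point per list and array, with lists set side by side at each array. The fibroblast median is at or near the floor on the sorted arrays of the first set and at least 8.54 elsewhere, and the granulocyte median is highest on Sca1- replicate 1, at 16.36.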

How the data were processed

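The deposited values of 7 single-colour oligonucleotide arrays, in 2 tables, are signal intensities, scaled to nearly the same trimmed mean on every array. For the 3 later arrays the submitters' processing notes name GCOS, and for the others the software is not given in the sources used. Groups and replicate numbers came from the titles, and an unnumbered title was taken as replicate 1. Identical arrays were not found.

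All arrays were brought to a 2% trimmed mean of 500, and log2 was taken with a floor of 64. Of 22690 probe sets, 64 controls, 691 with several genes and 1555 with none were left out, and 20380 were kept. The brightest probe set of a gene, by mean log2 over 6 arrays, was fitted. Comparisons used R 4.3.3 and limma 3.58.1 (lmFit, then eBayes with trend, two-sided, Benjamini-Hochberg at 0.05) on the 6 arrays of the larger table, with group as the only term or with set added, which left 3 and 2 residual degrees of freedom. The script was tested on simulated data. A fold against a signal below background used the highest bacterial control of that array as a bound; whether such transcripts were spiked into the samples is not stated. The number of arrays limits the precision.

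The members, gene lists and tests were chosen with earlier results of these data known. Named genes were the members, up to 4 genes per related list with the smallest p, the 3 genes most like each member and up to 3 markers per list. Gja4, Gja5, Cav3, Acta2, Tie1, Kdr, Eng and Egfl7 were singled out after their values were seen. Motifs were searched in the RefSeq promoter windows of GRCm38.p6. Alternatives were quantile and median scaling, other floors, a pseudocount of 32, other filters, averaged probe sets, blocks and each array left out. Figures were drawn with matplotlib 3.10.9.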

Additional observations from a re-analysis of the deposited data

How the results depend on the processing

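In Sca1+ against Sca1-, Cav1, Cav2 and Gja1 stayed above 0 in all 18 alternatives, at 0.21 to 1.30, 0.55 to 2.17 and 0.96 to 2.08, and Cavin1 ran from -1.60 to 1.90. The number of genes passing (0) became 1 (Smad9, named after its values were seen) with no filter, 85 with the set as a block and 80 with the replicate block. Same-numbered arrays deviated together from their fraction means (r of 0.57 and 0.48). The deviations of the 2 Sca1+ arrays mirror each other, so both values rest on 1 Sca1+ difference and are not 2 separate observations. With 2 pairs and no label of pairing the numbers were not taken to pair the samples.

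In the later against the first set, 1653 genes passed; 541 did with a higher floor, 31 with no filter, 153 with a floor at the highest background control (added after seeing the data) and 642 to 2939 with 1 array left out. Cavin1 lost its call with that floor (1.87), no filter (2.87, adjusted p = 0.135), averaged probe sets (0.83) and the background floor (1.46), and ran from 2.40 to 3.498 with 1 array left out. With 1 array left out Cav1 ran from -0.44 to 2.13 and Cav2 from 0.29 to 3.00. Both were lowest without Sca1- replicate 1, which leaves a single sorted array of the first set. The cause of these changes was not tested. Where leaving out an array left 1 in a group, it was assumed to vary like the others. Signals under the highest background control, up to 170, set no order.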
